A study of Rattus norvegicus with 8 samples.

Results

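Galectins, annexins and S100 proteins are 3 families of small binding proteins whose genes are often induced in reactive glia and in phagocytes of injured brain tissue. The genes described here are Lgals1, Lgals3, Anxa1, Anxa2, Anxa3, Anxa5, S100a4, S100a6, S100a10 and S100a11, taken as the non-control array spots that carry one of these 10 names. The spots so named numbered 15 of 43379 and covered 9 of the 10 genes. No spot carried the name S100a11, so that gene has no value here. All 9 genes with a spot passed the filter on dim spots, among 20826 genes that did so. The 10 genes were chosen by name with their measured CES minus COS log2 differences, those between the groups defined below, already known. Those differences are given as a description. Where limma's fit over all genes called one of the 10 genes, the call is counted beside the share of all genes called, and it is not an independent test of that gene.

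Galectins are lectins that bind β-galactosides on cell surface glycoproteins, inside and outside the cell. Annexins bind acidic membrane phospholipids when calcium is raised and take part in membrane repair and vesicle traffic. S100 proteins are small EF-hand calcium sensors that work largely by binding a partner protein, and S100a10 is known for forming a complex with Anxa2 at the plasma membrane.

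RNA came from the dentate gyrus (DG) of 8 adult female Sprague-Dawley rats, all ovariectomized and all subjected to status epilepticus (SE) by kainic acid. The 4 COS rats received oil and the 4 CES rats received estradiol (E2), named EB in the labels and the benzoate in the study's methods. The labels give 4 doses of 2 μg E2, 2 of them before and 2 after SE, and 16 mg/kg of kainic acid, with pentobarbital given at 5 h to stop SE. The study's methods differ from these labels, with a lower kainic acid dose, diazepam and all E2 doses before SE. They give different collection times in different paragraphs, so the interval between SE and collection is not settled. Rats without SE were not analysed here. Each rat was 1 channel of 4 two-colour arrays on a single slide, replicates 1 and 3 in Cy3 and replicates 2 and 4 in Cy5. Each array held rats of 1 group, so array and group cannot be told apart within an array. A level is the log2 of the background-subtracted signal relative to the median valid spot of that rat, so a level of 0 is the median valid spot. Levels of different genes come from different probes and are not compared with each other.

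Between 70.7% and 88.9% of the spots were valid in a rat, meaning a foreground of at least 2 times the local background, and no spot was saturated. CES replicate 2 stood apart from the other CES rats. With the mean dye effect removed, its root mean square distance over 20826 genes was 0.55 log2 units to the other rats of its own group and 0.51 to COS. For the other 7 rats the distance was 0.32 to 0.43 to their own group and 0.67 to 0.97 to the other group. The differences of the described genes, and the companion and marker values that turn on it, are therefore given with and without CES replicate 2, and the cause of its position was not tested. That rat was picked from these same data for lying near COS, so leaving it out can enlarge differences and narrow the CES spread. Calls and p-values without it are a description. Of 8 genes listed as granule neuron markers, Prox1 and Rbfox3 had no quantified spot. Of the 6 quantified, limma called Dsp lower and Neurod2, Syt1 and Stmn2 higher in CES, beside 28.6% and 5.74% of all genes. Calb1, which lay between 2.32 and 3.30 in all 8 rats, and Snap25 were not called.

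The array reads S100a4 from both strands, and the 2 probes below are shown because both are named S100a4 but only one reads the gene. Positions are on rn4, sequences are the 60-base probes 5′ to 3′ as the array files give them, and the capitals mark the 24 bases in which the probes are complementary. The first lies on the plus strand at chr2:182887157-182887216 and the second on the minus strand at chr2:182887121-182887180.
S100a4 probe on the gene's strand: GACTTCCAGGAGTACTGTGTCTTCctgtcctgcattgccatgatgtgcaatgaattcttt
S100a4 probe on the opposite strand: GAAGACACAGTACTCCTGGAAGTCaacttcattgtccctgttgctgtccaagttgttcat
The opposite-strand probe was kept out of the level of S100a4. That level averaged the first probe with a further probe on the gene's strand, not shown, and they differed between the groups by -1.91 and -2.27.

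RefSeq promoters (GRCr8) were listed for 7 of the 10 genes, and for Lgals1, Lgals3 and S100a10 none was. The 60 bases before the start are shown for 6 of them, 5′ to 3′ on the gene's strand, with TATAA in capitals where it occurs, because this was the most frequent match among the motifs searched. TATAA and its 60-base window were picked after the sequences and the differences had been seen.
Anxa1, chr1:227303733-227303792, minus strand: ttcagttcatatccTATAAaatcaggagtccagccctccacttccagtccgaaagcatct
Anxa2, chr8:78986192-78986251, plus strand: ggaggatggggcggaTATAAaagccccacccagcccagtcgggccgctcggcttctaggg
S100a4, chr2:178388469-178388528, plus strand: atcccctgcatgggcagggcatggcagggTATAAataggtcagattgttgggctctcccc
S100a6, chr2:178398477-178398536, plus strand: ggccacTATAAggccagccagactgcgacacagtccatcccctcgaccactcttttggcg
Anxa3, chr14:13085598-13085657, minus strand: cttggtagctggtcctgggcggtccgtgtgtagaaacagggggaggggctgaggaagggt
Anxa5, chr2:121272697-121272756, minus strand: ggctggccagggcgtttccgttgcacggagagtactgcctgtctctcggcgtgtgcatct

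TATAA, searched on both strands in these 60 bases, was found in 4 of the 7 promoters and in 6.94% of 33469 rat promoters. Over the full 250 bases before the start it was found in 5 of the 7, Anxa5 being added by a match on the opposite strand, and in 24% of all promoters. The AP-1 motif TGANTCA was found over the 250 bases in Anxa2, 123 bases before the start, and in 6.34% of all promoters. No match among the 7 was found for TGACGTCA (1.59% of all promoters), the palindromic estrogen response element (0.0239%), TTCNNNGAA (7.67%), the NF-kB motif (0.314%) or the CArG box (1.5%). These matches are descriptions of letters in a window.

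All 9 measured genes had a lower mean level in CES than in COS, beside 68.6% of all genes. By limma across all genes 8 of the 9 were called lower at an adjusted p under 0.05 and 0 higher, beside 28.6% of all genes called lower, 5.74% called higher and 34.3% called in either direction. The exception was Anxa3. In 7 of the 9 genes every CES rat lay below every COS rat, beside 19.7% of all genes, and the exceptions were Anxa3 and S100a4. CES replicates 1, 3 and 4 lay below every COS rat in 9 of the 9, beside 22.4% of all genes. The median difference of the 9 genes was -2.31 on the log2 scale, and that of all genes was -0.25. Without CES replicate 2, 9 of the 9 were called lower and 0 higher, beside 33.0% and 8.70% of all genes, and the median difference was -2.88. Without COS replicate 3, 1 of the 9 was called, Anxa1, beside 5.48% of all genes, while the median difference was -2.22. The count of called genes also depended on the scaling, falling to 4 of the 9 (Lgals1, Anxa1, Anxa2 and S100a6) after loess, after quantile normalization, after scaling on the shared valid spots and in the deposited log2 table. Under each of these more genes of the array were called higher than lower, for example 2999 against 1943 after loess, where 5958 were lower and 1195 higher in the fit described here. The methods' t-test with Benjamini-Hochberg adjustment called 0 of the 9 (6 at an unadjusted p under 0.05), and limma without the filter on valid spots also called 0 (5 at an unadjusted p under 0.05). Each of these settings called 0 genes of the whole array. The differences themselves kept their sign under every alternative tried. These are bulk samples, so fewer cells of a type and less RNA per cell cannot be told apart.

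**Figure D1:**
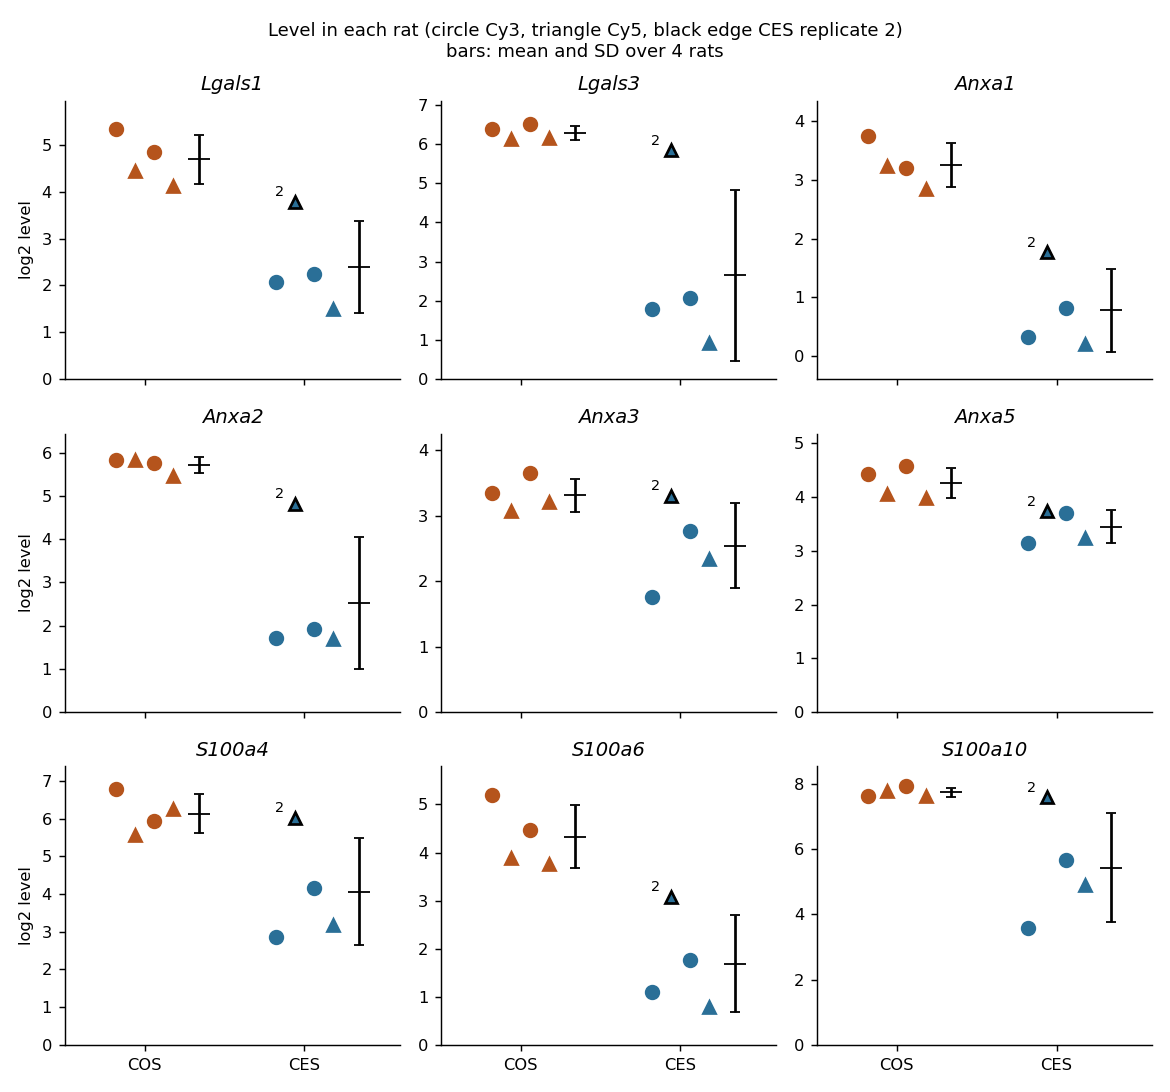
The log2 level of each of the 9 measured genes in each rat, relative to the median valid spot of that rat, with circles for Cy3 and triangles for Cy5 and the mean and SD over 4 rats at the right of each group. CES replicate 2, with a black edge, lies above the other 3 CES rats in all 9 panels, and in S100a10 it reaches 7.59 against 7.63 in the lowest COS rat.

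Of the galectins, Lgals3 had the largest difference of the 9 genes. Lgals3 encodes galectin-3, which phagocytic cells make in quantity. Its level was 6.38, 6.13, 6.50 and 6.15 in COS replicates 1 to 4 and 1.78, 5.84, 2.06 and 0.92 in CES replicates 1 to 4. CES replicate 2 lay just under the COS rats and the other CES rats far below, so the SD was 0.18 in COS and 2.18 in CES (n = 4 each). The difference was -3.64 with a standard error of 0.83, a 12.4-fold higher geometric mean in COS. Without CES replicate 2 it was -4.8 with a standard error of 0.20. Only 0.173% of all genes had a lower difference than Lgals3. Its call was lost after loess, quantile normalization and scaling on the shared valid spots, and in the deposited table. It was also lost without the filter on valid spots, by the methods' t-test, and without COS replicate 3 or CES replicate 1.

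Lgals1 encodes galectin-1, a dimeric lectin made by astrocytes and vascular cells among others. Its level was 5.34, 4.45, 4.85 and 4.12 in the COS rats and 2.07, 3.79, 2.24 and 1.5 in the CES rats. The groups did not overlap, with CES replicate 2 the nearest to COS. The difference was -2.29 (standard error 0.45), from 4.69 ± 0.53 in COS to 2.40 ± 0.98 in CES (SD, n = 4), and -2.88 (standard error 0.19) without CES replicate 2.

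Of the annexins, Anxa2 and Anxa1 had differences several times those of Anxa3 and Anxa5. Anxa2 carries S100a10 at the plasma membrane, where the complex binds plasminogen and its activators. Its level was 5.84, 5.84, 5.76 and 5.45 in COS and 1.71, 4.82, 1.91 and 1.68 in CES. CES replicates 1, 3 and 4 lay within 0.23 of each other, with an SD of 0.13, while CES replicate 2 lay 3.05 above their mean. The difference was -3.19 (standard error 0.57), and -3.98 (standard error 0.18) without that rat.

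Anxa1 is a glucocorticoid-induced ligand of formyl peptide receptors. Its level was 3.74, 3.23, 3.19 and 2.85 in COS and 0.32, 1.77, 0.82 and 0.21 in CES. No CES rat reached the COS range, and CES replicate 2 lay about midway. The difference was -2.47 (standard error 0.34), and -2.87 (standard error 0.21) without CES replicate 2. Anxa1 was the member still called when COS replicate 3 was left out, with a difference of -2.46. A second Anxa1 probe, left out because the software marked it as an outlier in 1 rat, differed by -2.62.

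Anxa5 binds phosphatidylserine, the lipid that dying cells expose. Its level was 4.43, 4.06, 4.58 and 3.99 in COS and 3.14, 3.74, 3.70 and 3.23 in CES. The groups did not overlap, but the lowest COS rat and the highest CES rat were only 0.25 apart. The difference was -0.81 (standard error 0.21), and -0.96 (standard error 0.19) without CES replicate 2. It ranged from -1.08 to -0.36 over the alternatives. The call was lost after normexp, loess, quantile normalization and scaling on the shared valid spots, and in the deposited table. A foreground of 3 times background, the mark for well above background, no filter on valid spots and the methods' t-test also ended it. So did leaving out COS replicate 1, COS replicate 3 or CES replicate 1.

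Anxa3 encodes a further calcium-dependent phospholipid-binding annexin. Its level was 3.34, 3.07, 3.65 and 3.20 in COS and 1.76, 3.30, 2.76 and 2.34 in CES. CES replicate 2 lay inside the COS range, and the other 3 CES rats below it. The difference was -0.77 (standard error 0.30) and was not called, and -1.05 (standard error 0.25) without CES replicate 2, where it was. A further Anxa3 probe was left out because the software marked it as an outlier in 1 rat. With such spots kept, the difference was -1.09 and Anxa3 was called.

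The 3 measured S100 genes were all called lower, beside 28.6% of all genes. The calls of S100a4 and S100a10 were both lost after normexp, loess, quantile normalization and scaling on the shared valid spots, and in the deposited table. They were also lost at a foreground of 3 times background, without the filter on valid spots and by the methods' t-test. Leaving out COS replicate 1, COS replicate 3, COS replicate 4 or CES replicate 1 ended both calls too. S100a10, also named p11, is the annexin 2 light chain. Its level was 7.63, 7.78, 7.93 and 7.63 in COS and 3.58, 7.59, 5.66 and 4.91 in CES. The COS rats were close together (SD 0.14), and the CES rats were spread over 4.01 log2 units, with CES replicate 2 next to COS. The difference was -2.31 (standard error 0.61), and -3.00 (standard error 0.39) without CES replicate 2.

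S100a6, calcyclin, is a calcium sensor of fibroblasts and astrocytes. Its level was 5.19, 3.89, 4.47 and 3.77 in COS and 1.11, 3.08, 1.76 and 0.79 in CES. The groups did not overlap, and the lowest COS rat lay 0.69 above CES replicate 2. The difference was -2.64 (standard error 0.48), and -3.25 (standard error 0.24) without CES replicate 2.

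S100a4 binds non-muscle myosin and is found in motile cells, leukocytes and white matter astrocytes. Its level was 6.78, 5.56, 5.94 and 6.24 in COS and 2.86, 6.02, 4.16 and 3.19 in CES. CES replicate 2 lay among the COS rats, and the other 3 CES rats below all of them. The difference was -2.07 (standard error 0.59), and -2.79 (standard error 0.32) without CES replicate 2. The probe on the opposite strand, printed above, differed by -1 (standard error 0.25), and the scanner software marked it well above background in 3 of the COS and 2 of the CES rats.

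**Figure D2:**
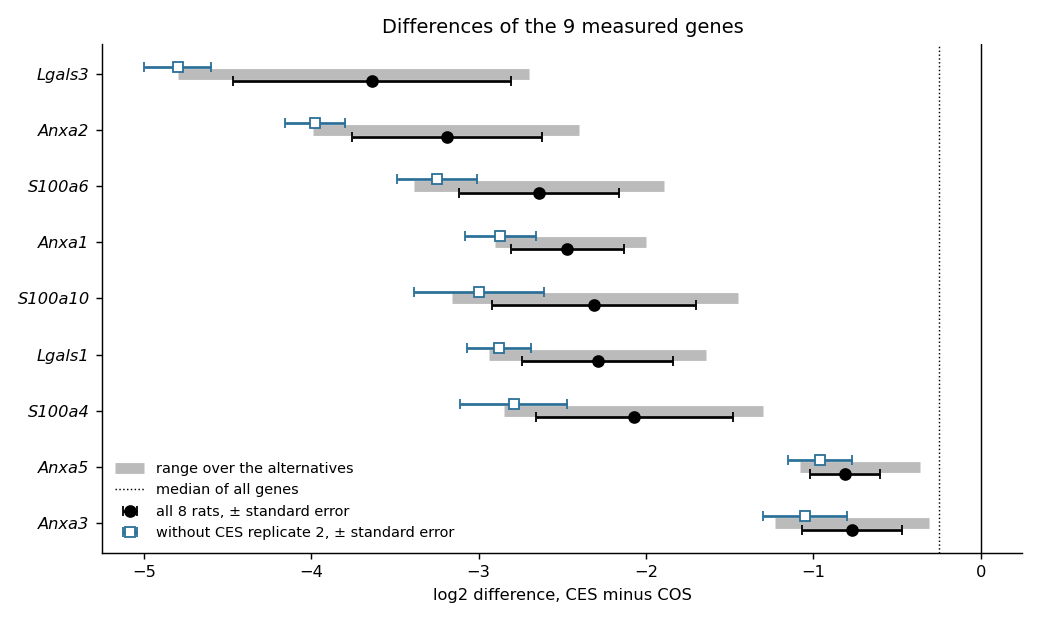
The CES minus COS difference of each measured gene on the log2 scale, with all 8 rats (filled circles) and without CES replicate 2 (open squares), bars showing ± 1 standard error and grey bars the range over the alternatives. Every value lies below 0, and the 7 genes from Lgals3 to S100a4 lie at -2.07 or lower while Anxa5 and Anxa3 lie at -0.81 and -0.77.

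CES replicate 2 differed in the same direction for all 9 genes but not to the same extent. On a scale from 0% at the mean of the other 3 CES rats to 100% at the COS mean, it lay at 42.4% for Anxa5 and 47.3% for Anxa1. It lay at 59.7% for S100a6, 67.3% for Lgals1 and 77.1% for Anxa2. For Lgals3, S100a10, S100a4 and Anxa3 it lay between 90.5% and 98.6%. The median SD of the 9 genes was 0.28 over COS, 1.01 over CES and 0.49 over CES without replicate 2, while the median SD of all genes was 0.38 over COS and 0.39 over CES. CES replicate 2 carried Cy5, and the difference within the Cy3 rats was larger than that within the Cy5 rats for each of the 9 genes, for example -4.52 against -2.76 for Lgals3.

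**Figure D3:**
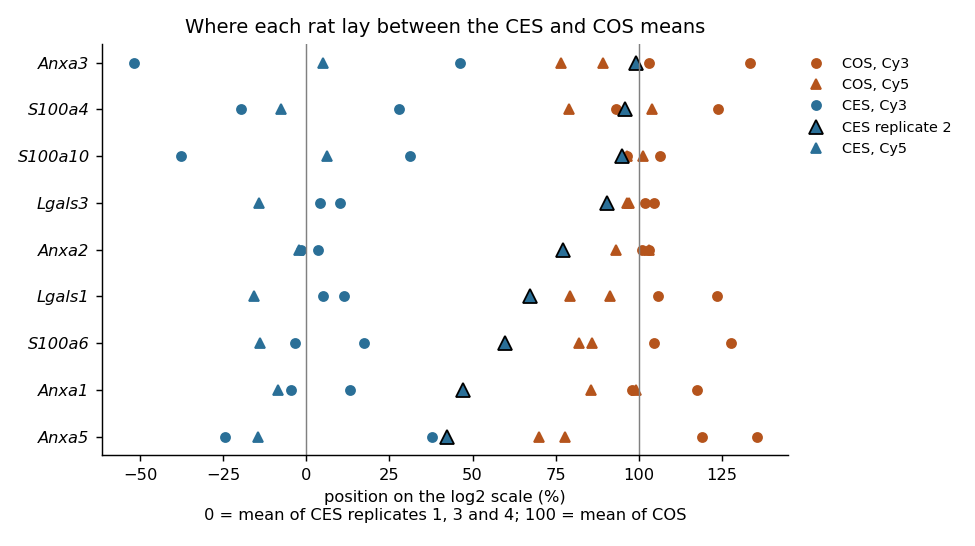
Position of each rat, in percent on the log2 scale, between the mean of CES replicates 1, 3 and 4 (0) and the mean of COS (100), for each gene. CES replicate 2, with a black edge, runs from 42.4% in Anxa5 to 98.6% in Anxa3.

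The other genes of these families and their partners were taken from lists of 52 genes, of which 33 were quantified. These lists were also chosen with results of these data known, and the family lists hold what was left once the 10 genes had been taken. Of the 33, 15 were lower and 0 higher by limma, beside 28.6% and 5.74% of all genes. Without CES replicate 2, 16 were lower and 1 higher, beside 33.0% and 8.70%.

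None of the 6 quantified other galectins was called by limma, and their differences ranged from -1.23 for Lgals7 to 0.13 for Lgals5. At an unadjusted p under 0.05, 1 of the 6 passed, Lgals7. Lgals7 was called lower without CES replicate 2, with a difference of -1.85 (standard error 0.27, limma adjusted p = 0.000423). Of 4 other annexins, Anxa4 and Anxa7 fell, beside 28.6% of all genes called lower. Anxa4, an annexin of epithelial membranes, was 2.75, 2.20, 3.31 and 2.63 in COS and 0.61, 1.89, 1.31 and 0.83 in CES. Its difference was -1.57 (standard error 0.31, limma adjusted p = 0.0062), and -1.87 without CES replicate 2. The call was lost in 5 of 23 alternatives. Anxa7 fell by 0.85 on the log2 scale (standard error 0.21, limma adjusted p = 0.0139), and this call was lost in 11 of 23 alternatives. Anxa6 and Anxa11 differed by -0.20 and 0.00.

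Of 6 other quantified genes with S100 in their name, S100a3 and S100b fell, beside 28.6% of all genes called lower. The 6 include S100pbp, which does not itself encode an S100 protein. S100a3 was 2.49, 2.52, 2.01 and 1.89 in COS and 0.15, 1.85, 1.43 and 0.69 in CES. Its difference was -1.20 (standard error 0.34, limma adjusted p = 0.0228), and the call was lost in 13 of 23 alternatives. S100b, a calcium sensor of astrocytes, overlapped between the groups and was named after its values were seen. It was 2.50, 2.48, 3.34 and 0.15 in COS and 2.63, -0.17, -1.13 and -1.85 in CES, so CES replicate 1 lay with the COS rats and COS replicate 4 with the CES rats. Its difference was -2.25 (standard error 0.77, limma adjusted p = 0.0453), and -2.60 without CES replicate 2. S100b was not called after loess, quantile normalization or scaling on the shared valid spots, or in the deposited table. S100a8 and S100a9, which neutrophils carry in large amounts, had no spot valid in all 8 rats, and each was valid in 4 COS and 3 CES rats.

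S100a3, S100a4 and S100a6 are neighbours on chromosome 2. On rn4 the start of the S100a3 probe lay at -3.8 kb and that of the S100a6 probe at 8.97 kb from the start of the S100a4 probe, and all 3 genes were called lower. S100a5 lies between S100a4 and S100a6 and was not quantified. S100a1, S100a13 and S100a16, whose probes lay at -102, -90.7 and -74.1 kb, differed by 0.25, 0.67 and -0.14 and were not called. Under loess, quantile normalization, scaling on the shared valid spots and the deposited table, S100a13 was called higher, and S100a3 and S100a4 were not called. S100a13 was also called higher without CES replicate 2, with a difference of 0.92 (limma adjusted p = 0.00512). S100a10 lay 3770 kb after S100a4.

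**Figure D4:**
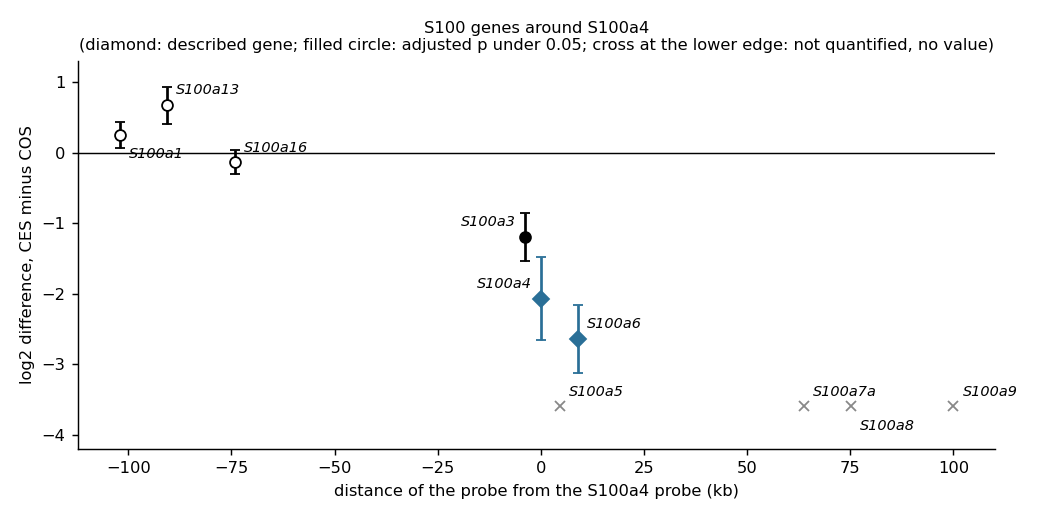
The CES minus COS difference (log2, ± 1 standard error) of S100 genes against the distance in kb of each probe from the S100a4 probe. S100a3, S100a4 and S100a6 lie between -1.20 and -2.64 from -3.8 to 8.97 kb, S100a1, S100a13 and S100a16 lie between -0.14 and 0.67, and crosses at the lower edge mark genes with no value.

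Of 17 quantified receptors and partners, 11 fell and 0 rose, beside 28.6% and 5.74% of all genes, with a median difference of -1.07. Cd44, a hyaluronan receptor and galectin ligand, was 5.67, 5.50, 5.92 and 5.41 in COS and 0.10, 4.32, 0.52 and -0.12 in CES. CES replicate 2 again lay near COS and the other 3 CES rats far below. The difference was -4.42 (standard error 0.79, limma adjusted p = 0.00467), and -5.52 (standard error 0.18) without CES replicate 2. Without COS replicate 3 it was -4.12 (limma adjusted p = 0.0522). Plat, the tissue plasminogen activator, fell by 2.08 (standard error 0.28, limma adjusted p = 0.00328), with a difference of -2.39 without CES replicate 2. Itgb1, the integrin β1 subunit that galectins bind, fell by 1.63 (standard error 0.22, limma adjusted p = 0.00329), with a difference of -1.84 without CES replicate 2. Pla2g4a, the cytosolic phospholipase A2 that annexins restrain, fell by 1.65 (standard error 0.35, limma adjusted p = 0.00743), with a difference of -2.09 without CES replicate 2. This call was lost in 6 of 23 alternatives.

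Tlr4, a receptor of S100a8 and S100a9, fell by 1.61 and was marked well above background in all 4 rats of COS but in 2 of CES, and over the alternatives its difference ran from -2.41 to -0.79. Dysf, the membrane repair protein dysferlin, fell by 1.45 and was so marked in 3 rats of COS and 1 of CES. Its difference ran from -2.37 to -0.66 over the alternatives, and the call was lost in 8 of 21. Mertk, a receptor for the uptake of dying cells, fell by 0.81 and was so marked in 4 rats of COS and 3 of CES. Its difference ran from -0.90 to -0.41 over the alternatives, and the call was lost in 8 of 22. The other 4 that fell, among them the S100a10 partners Ahnak and Htr1b and the S100a4 partner Myh9, overlapped between the groups. Ahnak and Myh9 were each so marked in 3 rats of COS and 2 of CES. Htr1b was so marked in 2 of COS and 0 of CES, and the remaining one, Mgat5, in 2 and 1. With only spots so marked in all 8 rats, 8 of the 17 were quantified and 4 fell, beside 876 genes lower and 2142 higher on the array. The S100a6 partner Cacybp differed by 0.00 (standard error 0.17) and the S100 receptor Ager by -0.11 (standard error 0.19).

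**Figure D5:**
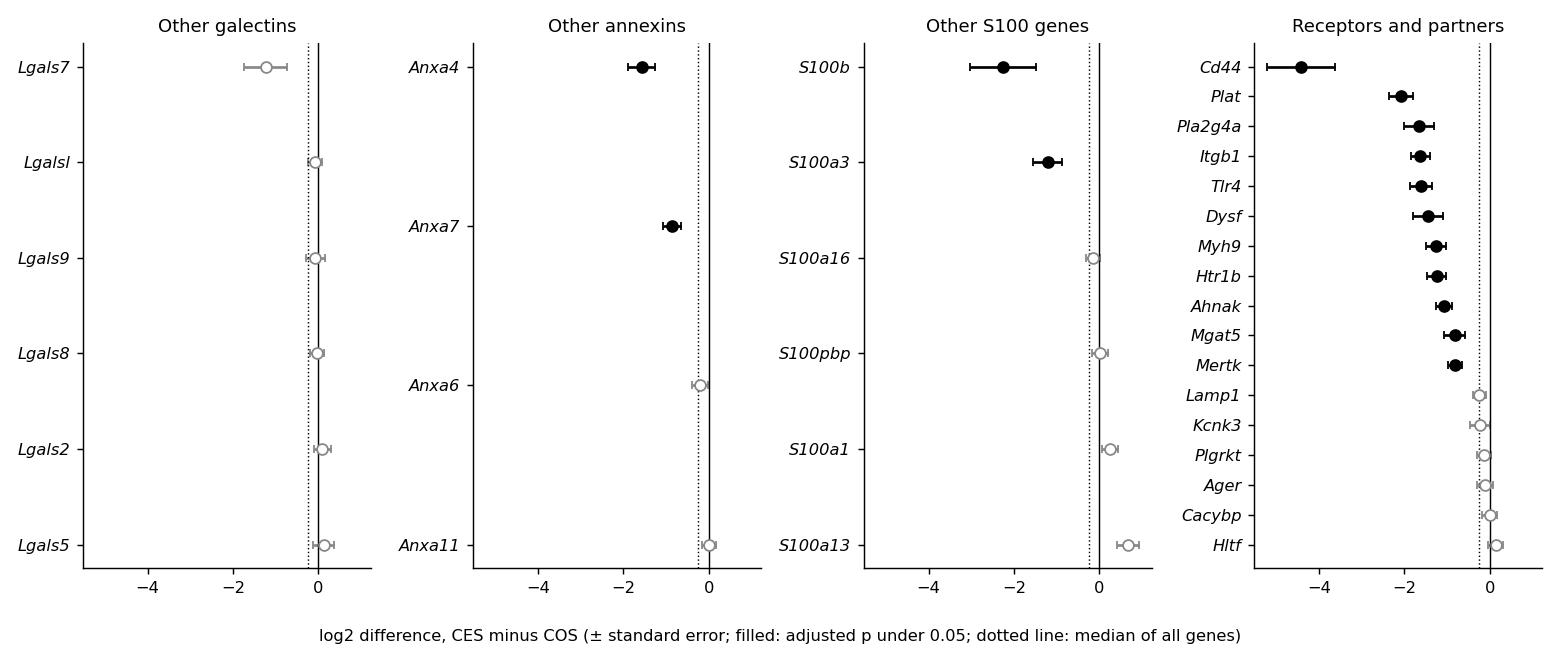
The CES minus COS difference (log2, ± 1 standard error) of the 33 quantified companion genes in 4 lists, filled where limma's adjusted p was under 0.05. Filled points are all below 0, from -4.42 for Cd44 to -0.81 for Mertk, and the other galectins are all open.

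Markers of several cell types that carry these genes moved between the same groups, and their part in the results was not tested. The counts below stand beside 28.6% of all genes called lower and 5.74% called higher. Without CES replicate 2 these shares were 33.0% and 8.70%. A summed level is the log2 of levels added on the linear scale, so the brightest probes of a list weigh most in it. Of 7 microglia markers, Itgam, Csf1r and Cd68 fell and P2ry12 rose, and the log2 of their summed level was 5.08 to 5.68 in COS and 4.66 to 5.15 in CES. Of 4 quantified blood leukocyte markers, Lyz2 and Ncf1 fell, and the summed level was 5.93 to 6.82 in COS and 3.06 to 4.8 in CES, with CES replicate 2 the highest of CES. This sum was close to Lyz2 alone, which was 5.89 to 6.76 in COS and 2.83 to 4.71 in CES, and does not describe the list as a whole. Lyz2 fell by 2.54 and Cd68 fell by 2.19, while the leukocyte marker Ptprc differed by -0.51 and the T cell marker Cd3e by 0.23, neither called. Of 6 quantified endothelial markers 4 fell and 1 rose. Their summed levels overlapped, at 5.48 to 6.1 in COS and 4.55 to 5.63 in CES, with CES replicate 2 the highest of CES. Of 7 quantified mural and meningeal fibroblast markers 4 fell and 1 rose. Their summed levels were 5.97 to 6.62 in COS and 4.46 to 5.43 in CES. Tagln weighed heavily in this sum, at 5.06 to 6 in COS and 2.38 to 4.61 in CES. Of 7 astrocyte markers 0 fell and 3 rose, and Gfap differed by -1.22 without being called. With CES replicate 2 left out, 1 fell and 4 rose, the one that fell being Gfap, with a difference of -1.56 (limma adjusted p = 0.00908). Of 6 choroid plexus markers none was called, and their summed level ran from 3.75 to 9.28 in COS and from 4.06 to 7.61 in CES. Of 6 granule neuron markers Dsp fell and 3 rose, and of 6 oligodendrocyte markers none was called. Without CES replicate 2, a further microglia marker, Cx3cr1, was lower (-0.54) and the oligodendrocyte marker Cnp was higher (1.16). After loess 1 microglia marker was lower (Cd68), 1 leukocyte marker (Lyz2), 1 endothelial marker (Flt1) and 2 mural and meningeal markers (Pdgfrb and Tagln). The granule neuron marker Dsp was also lower after loess, while Neurod2, Stmn2, Syt1, Aldh1l1, Aldoc, P2ry12, Slco1a4 and Dcn were higher. Over all genes, loess gave 1943 lower and 2999 higher.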

How the data were processed

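Per the labels, the deposited scanner files were extracted with Agilent Feature Extraction 10.7.3.1 and hold the intensity of each spot and its local background, with no normalization by the authors. The authors also deposited a log2 table, whose columns equal the log2 median signal minus background of each channel, less a constant. Values in the files carry 3 significant digits. Here, the background median was subtracted from the mean signal, and each channel was scaled to the median of its valid spots. The 26294 spots valid in all 8 rats and marked as outlier in none were averaged per gene and taken to log2. Gene names came from RefSeq accessions for 17512 of 41012 probes and from the files for the rest.

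The groups were compared with limma 3.58.1 (R 4.3.3), two-sided, with dye as a fixed term and array as a random block (statmod 1.5.0, correlation -0.0104), and Benjamini-Hochberg adjustment over 20826 genes at 0.05. The median standard error was 0.20. The number of arrays limits the precision. Each p-value tests a mean difference between the groups against the variation among these rats, with gene variances moderated by limma. The fit was tried on simulated data with independent noise and no outlying rat, so that trial does not cover the position of CES replicate 2. Figures were drawn with matplotlib 3.10.9 in Python 3.11.15.

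The members, the companion and marker lists and the tests were chosen with earlier results of these data known. All 10 members are named, and of each companion list the called, non-overlapping genes, up to 8. Alternatives changed the background correction, signal, normalization, filter, probe rule, test, blocks and source table, and left out each rat. Counting the opposite-strand probe with S100a4, the motif set and the promoter windows were chosen after seeing the data.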

Additional observations from a re-analysis of the deposited data

Results flagged for a closer look

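Of 38 groups of 4 rats examined for a rat far from the other 3, 2 held one, and chance gives about 1 in 20. Anxa2 in CES replicate 2 had a level of 4.82, and the nearest other CES rat was at 1.91, a gap of 0.927 of the whole range. Cd44 in CES replicate 2 had a level of 4.32, and the nearest other CES rat was at 0.52, a gap of 0.856 of the range. In both genes the same rat was the distant one, and the cause was not tested.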

How the results depend on the processing

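None of the differences of the 9 genes or of the non-overlapping companion genes changed sign under any alternative tried, and the median of the 9 genes stayed between -2.88 and -1.86. The median of all genes moved from -0.25 to 0.15 when channels were scaled on the shared valid spots, and relative to it the median of the 9 genes was -2.05 in both cases. The number called did depend on the processing. With all 8 rats, 5958 genes were lower and 1195 higher, 8 of the 9 genes and 15 companion genes were lower, and no companion gene was higher. Normexp gave 492 lower and 139 higher genes, 5 of the 9 and 3 companions lower. Loess gave 1943 and 2999, 4 of the 9, and 7 companions lower and 2 higher (S100a13 and Hltf, as in the next scalings). Quantile normalization gave 2257 and 3023, 4 of the 9, and 10 companions lower and 2 higher. Scaling on the shared valid spots gave 1717 and 3296, 4 of the 9, and 8 companions lower and 2 higher. The deposited log2 table gave 1927 and 3213, 4 of the 9, and 8 companions lower and 2 higher. A foreground of 3 times background gave 2811 lower genes, 5 of the 9 and 6 companions. The mark for well above background gave 876 and 2142, 7 of the 9, and 5 companions lower and 1 higher. Without the filter limma called 0 genes, 0 of the 9 and 0 companions, with 9039 of 34551 genes and 5 of the 9 at an unadjusted p under 0.05. The methods' t-test called 0 genes, 0 of the 9 and 0 companions after adjustment, with 5910 genes and 6 of the 9 at an unadjusted p under 0.05. The cause was not tested.

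Leaving out each rat in turn gave 1142 to 6955 genes lower and 285 to 1812 higher, 1 to 9 of the 9 genes lower, and 6 to 16 companions lower and 0 to 1 higher. The lowest counts lower came without COS replicate 3, and 4 of the 9 remained called without CES replicate 1 (Lgals1, Anxa1, Anxa2 and S100a6) and 5 without COS replicate 1, with S100a10, S100a4 and Anxa5 lost in both. The standard error of Lgals3 was 1.12 without COS replicate 3 and 0.20 without CES replicate 2.

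With the replicate number as a block in place of the dye, 7 of the 9 genes and 15 companions were called lower, S100a4 being lost. Same-numbered rats correlated at 0.21 to 0.35, but they share the dye, and with the dye effect removed the correlations were -0.28 to 0.09 and 0 of 4 numbers matched best with their own, so the numbers were not read as pairs.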
